A study of Mus musculus with 16 samples.

Results

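The chemokine genes Ccl1, Ccl3, Ccl4, Ccl5, Ccl9, Xcl1 and Cxcl10 were followed across 16 RNA-seq samples of mouse CD8+ T cells. These 7 genes were taken by symbol from a table of 54532 genes, and each symbol matched 1 row. CD8+ T cells from the spleens of C57BL/6J mice were made into TCF1+CD8+ T cells by 4 days of repeated activation in culture, and the labels name no allele beyond that strain. The series asked how prostaglandin E2 (PGE2), a lipid mediator made by many tumours, alters these stem-like cells. All 4 groups received low-dose IL-2 (85 U/ml), the T cell growth factor, for the last 4 h of culture. In the unstimulated untreated group IL-2 was the only addition. The unstimulated PGE2 group was first kept in 100 ng/ml PGE2 for 1 h. The stimulated untreated group had anti-CD3/CD28 beads, which engage the T cell receptor complex and the co-stimulatory receptor CD28, at 1 bead per cell beside the IL-2. The stimulated PGE2 group had both the PGE2 and the beads. Each group had 4 replicates, numbered 1 to 4, and the labels do not say whether these were separate cultures or mice, so p-values measure only the spread between these samples. As a model the cells are limited in that they had met such beads repeatedly before the experiment, and were therefore not resting cells of the spleen.

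Chemokines are small secreted proteins that bind G-protein-coupled receptors and steer the movement of leukocytes. Activated CD8+ T cells are a known source of CCL3, CCL4 and CCL5, which draw in other T cells and myeloid cells, and of XCL1, which attracts cross-presenting dendritic cells through XCR1. CCL1 is the ligand of CCR8, CCL9 binds CCR1 and is mostly known from myeloid cells, and CXCL10 is an interferon-induced ligand of CXCR3.

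In brief, Ccl4, Xcl1, Ccl3, Ccl1, Ccl9 and Cxcl10 rose upon bead stimulation and Ccl5 stayed within 10% of its unstimulated mean. Among stimulated cells, mean Ccl1 with PGE2 was 10.02% of the untreated level, Ccl3 25.2%, Ccl4 35.8% and Xcl1 41.5%, while Ccl5 was at 86.2% and Cxcl10 at 105%. Ccl1 and Ccl3 passed the test without regard to replicate number, and Ccl4 and Xcl1 also passed once samples of the same number were compared with each other. Without beads, mean Ccl1 with PGE2 was 7.08% of the untreated level, Ccl4 23.0%, Ccl3 24.5% and Xcl1 56.5%, and the test of a difference between both settings called none of the 7 genes.

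On GRCm38, the build of the files, 5 of the genes lie on chromosome 11. Ccl5 (chr11:83525778-83530518), Ccl9 (chr11:83572919-83578636) and Ccl3 (chr11:83647844-83649355) are on the minus strand, and Ccl4 (chr11:83662584-83664683) follows on the plus strand. These 4 genes fit within 138906 bases, with 13228 bases between Ccl3 and Ccl4. Ccl1 (chr11:82176657-82305690, minus strand) stands apart from that cluster. Xcl1 (chr1:164931644-164935527) and Cxcl10 (chr5:92346638-92348889) are on the minus strand of other chromosomes. All 7 are annotated as protein-coding, and the counts cover their exons, UTRs included.

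Promoter sequence is shown for Ccl1, Ccl3 and Xcl1, whose mean levels were lower with PGE2, and for Cxcl10, which was induced by beads but not lower with PGE2. RefSeq windows on GRCm38.p6 were matched for 5 of the 7 genes, the fifth being Ccl9. Each line gives the 250 bases before the start of the RefSeq gene, on the strand of the gene, at chr11:82179813-82180062 for Ccl1, chr11:83649379-83649628 for Ccl3, chr1:164935523-164935772 for Xcl1 and chr5:92348890-92349139 for Cxcl10. For Ccl1 the RefSeq start lies inside the longer gene model given above, which has 3 transcripts, so that window is within the annotated gene. Capitals mark matches on either strand to short forms of motifs for NF-kB (GGG and CC with 5 free bases between them), AP-1 (TGANTCA), the cAMP response element (CRE, TGACGTCA), NFAT (TGGAAA) and the interferon-stimulated response element (ISRE, GAAA and GAAA with 2 free bases between them).
Ccl1: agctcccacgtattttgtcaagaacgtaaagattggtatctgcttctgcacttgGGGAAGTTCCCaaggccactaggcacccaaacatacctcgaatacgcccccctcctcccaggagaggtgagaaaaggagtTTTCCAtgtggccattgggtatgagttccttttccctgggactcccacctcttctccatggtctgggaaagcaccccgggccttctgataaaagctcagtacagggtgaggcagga
Ccl3: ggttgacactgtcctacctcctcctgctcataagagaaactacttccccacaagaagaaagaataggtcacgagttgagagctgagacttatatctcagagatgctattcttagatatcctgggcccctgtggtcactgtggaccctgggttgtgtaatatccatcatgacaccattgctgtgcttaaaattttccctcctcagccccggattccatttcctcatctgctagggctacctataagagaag
Xcl1: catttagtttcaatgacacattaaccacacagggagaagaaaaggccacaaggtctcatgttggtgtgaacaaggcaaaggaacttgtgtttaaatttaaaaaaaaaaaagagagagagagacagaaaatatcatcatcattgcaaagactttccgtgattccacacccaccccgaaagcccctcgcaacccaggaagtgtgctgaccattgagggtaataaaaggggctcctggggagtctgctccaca
Cxcl10: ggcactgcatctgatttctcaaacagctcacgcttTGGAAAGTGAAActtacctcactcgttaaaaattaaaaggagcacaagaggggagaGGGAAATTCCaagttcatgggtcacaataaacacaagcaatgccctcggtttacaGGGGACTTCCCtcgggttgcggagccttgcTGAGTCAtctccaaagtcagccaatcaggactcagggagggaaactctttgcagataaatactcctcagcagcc
The Ccl1 window held 2 overlapping NF-kB matches, which begin 196 and 195 bases before the start, and 1 NFAT match. The Cxcl10 window held 3 NF-kB matches, of which a pair overlap, 1 AP-1 match, and 1 ISRE match that overlaps the single NFAT match. No match to any of the 5 motifs was present in the Ccl3 or Xcl1 window. The Ccl9 window, which is not shown, held 1 NF-kB, 1 AP-1 and 2 NFAT matches. A CRE match was absent from all 5 windows. Of 32851 RefSeq windows of the same length, 45.8% held the NF-kB form, 18.6% the NFAT form, 6.75% the AP-1 form, 2.98% the ISRE form and 1.55% the CRE form. An NF-kB match of this form is therefore common, and a match describes letters and not a bound site.

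The libraries held 22678254 to 42950763 counts on genes. Levels of 1 gene across samples are given in CPM (reads of a gene relative to the library size, scaled with TMM factors), and levels of different genes are compared in FPKM, which the authors divided by gene length. The summed CPM of 8 CD8 T cell markers was 3080 to 5120 in all samples. Of 14 myeloid markers, 13 had a mean under 1 CPM, with C1qa, C1qb, S100a8 and S100a9 at 0 counts in every sample, Lyz2 at 3 counts over all samples, and Cd68 highest at 3.98 CPM. The 6 NK cell markers summed to at most 1.38 CPM, with Ncr1 at 0. Bulk samples cannot tell apart a change in how many cells make a transcript and a change in how much each cell holds.

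Replicates differed in a shared way. Stimulated replicate 1 was the highest of its group for 4 of the 7 genes in untreated and for 5 in PGE2 samples, and replicate 4 was the lowest for 4 and 6 genes. In unstimulated cells replicate 4 was the highest for 5 genes in each group. Ccl4 in stimulated PGE2 samples thus spanned 6.23-fold and Ccl3 6.18-fold. Ccl5, in contrast, was highest in replicate 3 of every group.

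The plot of levels by sample shows the 7 genes on a log scale.

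**Figure D1:**
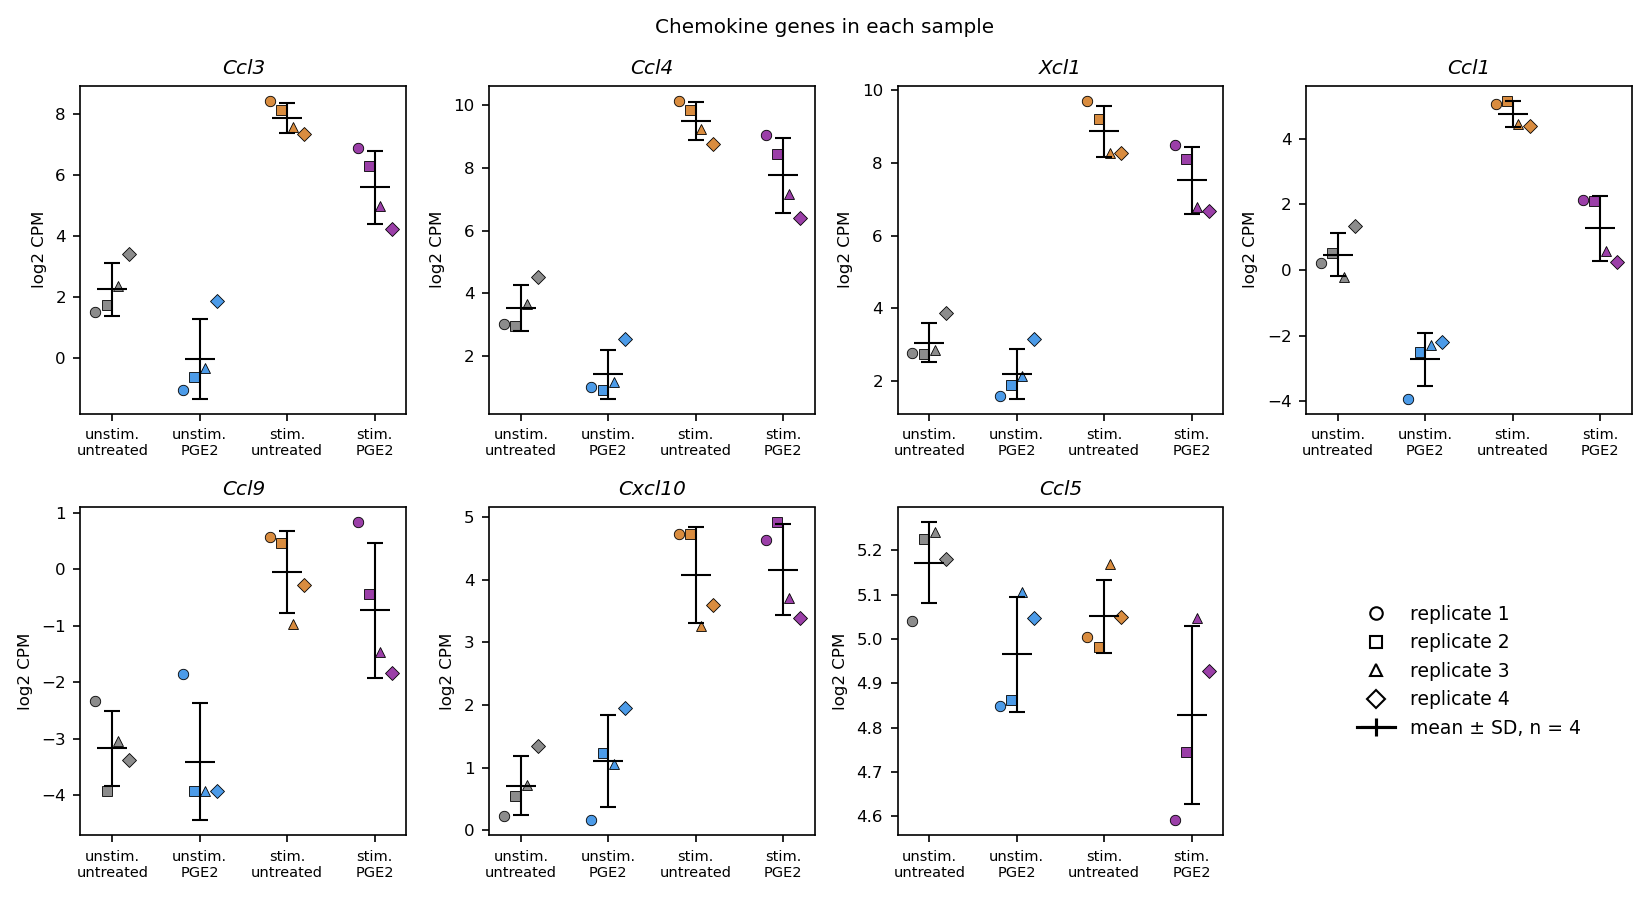
Log2 CPM of each chemokine gene (vertical axes, each with its own range) in the 4 groups (horizontal axes). Each symbol is 1 sample, its shape gives the replicate number, and the line and bar give the mean ± SD of 4 samples. Ccl3, Ccl4, Xcl1, Ccl1, Ccl9 and Cxcl10 sat higher in every stimulated sample than in the unstimulated samples of the same treatment, whereas the axis for Ccl5 spans less than 1 log2 unit.

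The first question was how the chemokine transcripts respond to T cell receptor stimulation without PGE2. The test was edgeR's quasi-likelihood test over 14205 genes. A gene was called at a Benjamini-Hochberg adjusted p below 0.05 with at least a 2-fold change. In this comparison 23.2% of all genes tested were called and 11.5% were called higher. All 7 chemokine genes passed the filter on low counts, 6 were called higher and none lower, with a median log2 fold change of 4.26 beside −0.03 over all genes. In the same 6 genes each stimulated sample was above each unstimulated one, as in 30.3% of all genes tested.

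Ccl4, also known as macrophage inflammatory protein 1β, had 8.12, 7.63, 12.5 and 22.8 CPM in unstimulated replicates 1 to 4 and 1131, 918, 610 and 434.5 CPM in the stimulated ones. Even the lowest stimulated sample exceeded the highest unstimulated one many times over. Its log2 fold change was 5.90 ± 0.41 (SE, n = 4 per group, edgeR adjusted p = 1.09e-07), or 59.8-fold.

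Xcl1, also called lymphotactin, was at 6.84, 6.70, 7.12 and 14.5 CPM without beads and at 834, 590, 311 and 309 CPM with them. The groups were far apart, although stimulated replicates 1 and 2 were well above replicates 3 and 4. The log2 fold change was 5.85 ± 0.40 (SE, edgeR adjusted p = 9.34e-08). Xcl1 shares 18.7% of its exon bases with the antisense gene Gm20743, and the use of strand in counting is not stated. Gm20743 had 0.595 CPM without and 14.7 CPM with beads, and 3.51 CPM with beads and PGE2. Counted as reads and not per length, these values were 6.77%, 2.88% and 1.66% of those of Xcl1.

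Ccl3, macrophage inflammatory protein 1α, was at 2.78, 3.27, 5.12 and 10.7 CPM unstimulated and at 343, 281, 190 and 160 CPM stimulated. Here too no sample overlapped with the other group. The log2 fold change was 5.44 ± 0.39 (SE, edgeR adjusted p = 1.41e-07).

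Ccl1 rose from 1.10, 1.37, 0.788 and 2.44 CPM to 33.3, 35.2, 21.7 and 20.9 CPM, or by 4.26 ± 0.29 on the log2 scale (SE, edgeR adjusted p = 1.02e-07). Its stimulated samples were the least dispersed of the induced genes above 1 CPM, with a coefficient of variation of 27.0%. Cxcl10 went from 1.10, 1.40, 1.58 and 2.47 CPM to 26.3, 26.5, 9.53 and 12.0 CPM, which was 3.48 ± 0.37 higher on the log2 scale (SE, edgeR adjusted p = 3.38e-06). Ccl9 was scarce, with 3, 0, 2 and 1 reads in the unstimulated and 54, 36, 11 and 18 reads in the stimulated samples. Its change by 4.22 ± 0.63 log2 units (SE, edgeR adjusted p = 5.24e-05) rests on 6 reads in the unstimulated group.

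Ccl5 (RANTES) was the exception. It had 32.9, 37.3, 37.8 and 36.2 CPM without beads and 32.0, 31.5, 35.9 and 33.1 CPM with them. The ranges overlap and differ by little, and the log2 fold change was −0.14 ± 0.08 (SE, edgeR adjusted p = 0.134). Ccl5 was thereby the member with the smallest spread, its coefficient of variation within groups being 5.89% to 13.8%.

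Stimulation in the presence of PGE2 gave the same picture. This comparison shares its PGE2-treated stimulated samples with the PGE2 comparison described below. Of 14507 genes 22.1% were called, 12.7% higher. Among the 6 chemokine genes that passed the filter, Ccl4 (6.55 ± 0.67), Ccl3 (5.48 ± 0.75), Xcl1 (5.42 ± 0.52), Ccl1 (4.68 ± 0.65) and Cxcl10 (3.09 ± 0.42, log2 fold change ± SE) were called higher, with edgeR adjusted p-values of 7.6e-06 to 9.07e-05. Ccl5 was at −0.12 ± 0.11 (edgeR adjusted p = 0.358). Ccl9 did not pass the filter and had 6 reads in the unstimulated and 82 in the stimulated PGE2 group. The groups did not overlap for these 5 genes and for Ccl9, and 30.1% of all genes tested were higher in this way. Chemokine transcripts were thus induced by beads also in cells that had been given PGE2.

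The main question of the series was what PGE2 does to cells that are then stimulated. Of 13922 genes, 1.75% were called and 0.546% were called lower. All 7 chemokine genes were tested, 2 were called lower and none higher, and the median log2 fold change was −1.26 beside −0.01 over all genes. The groups did not overlap for Ccl1 and Ccl3, and 8.32% of all genes were lower in this way.

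Ccl1 showed the largest difference of the 7. Stimulated samples with PGE2 had 4.33, 4.27, 1.43 and 1.11 CPM, each below every untreated one at 20.9 to 35.2 CPM. The log2 fold change was −3.31 ± 0.40 (SE, n = 4 per group, edgeR adjusted p = 0.000958). By number, the PGE2 sample held 5.3% to 13.0% of its untreated counterpart. With PGE2 and beads, mean Ccl1 stood 1.95 times above the unstimulated untreated mean and the samples of these groups overlapped.

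Ccl3 fell as well. Its PGE2 samples had 117, 78.5, 31.6 and 18.9 CPM, all below the lowest untreated sample at 160 CPM. The log2 fold change was −1.98 ± 0.50 (SE, edgeR adjusted p = 0.0345). The call was lost on leaving out untreated replicate 1 (adjusted p = 0.0874), 2 (0.0948) or 3 (0.0613), or PGE2 replicate 2 (0.0603) or 3 (0.096), while the log2 fold change stayed between −2.498 and −1.68.

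Ccl4 with PGE2 was at 532, 346, 143 and 85.5 CPM, and replicate 1 of the PGE2 group lay above untreated replicate 4 at 434.5 CPM. The difference of −1.47 ± 0.51 log2 units (SE) did not pass (edgeR adjusted p = 0.0989). Xcl1 was at 360.5, 275, 110.0 and 103 CPM and likewise overlapped, with −1.26 ± 0.45 (SE, edgeR adjusted p = 0.106). For both genes each PGE2 sample was lower than the untreated sample of its own number, by 1.09 to 2.35 log2 units for Ccl4 and by 1.10 to 1.58 for Xcl1.

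Stimulated samples with the same number mostly deviated together from their group means over all genes. PGE2 replicate 2 was an exception, as it correlated less with its own number (0.194) than with another (0.255). In an edgeR fit that blocks on replicate number, 4 of the 7 genes were called lower, against 2.51% of all genes called and 0.84% called lower. In that fit Ccl4 fell by 1.72 (adjusted p = 3.83e-05) and Xcl1 by 1.34 (adjusted p = 8.72e-07) on the log2 scale, beside Ccl1 (−3.37, 3.55e-07) and Ccl3 (−2.20, 1.87e-05). Leaving out PGE2 replicate 1 also brought Ccl4 (−2.01, adjusted p = 0.0231) and Xcl1 (−1.65, 0.0377) past the threshold without the block. Omitting any other single sample left both uncalled, at edgeR adjusted p up to 0.235 for Ccl4 and 0.286 for Xcl1. Samples joined by replicate number are shown in the plot of pairs.

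**Figure D2:**
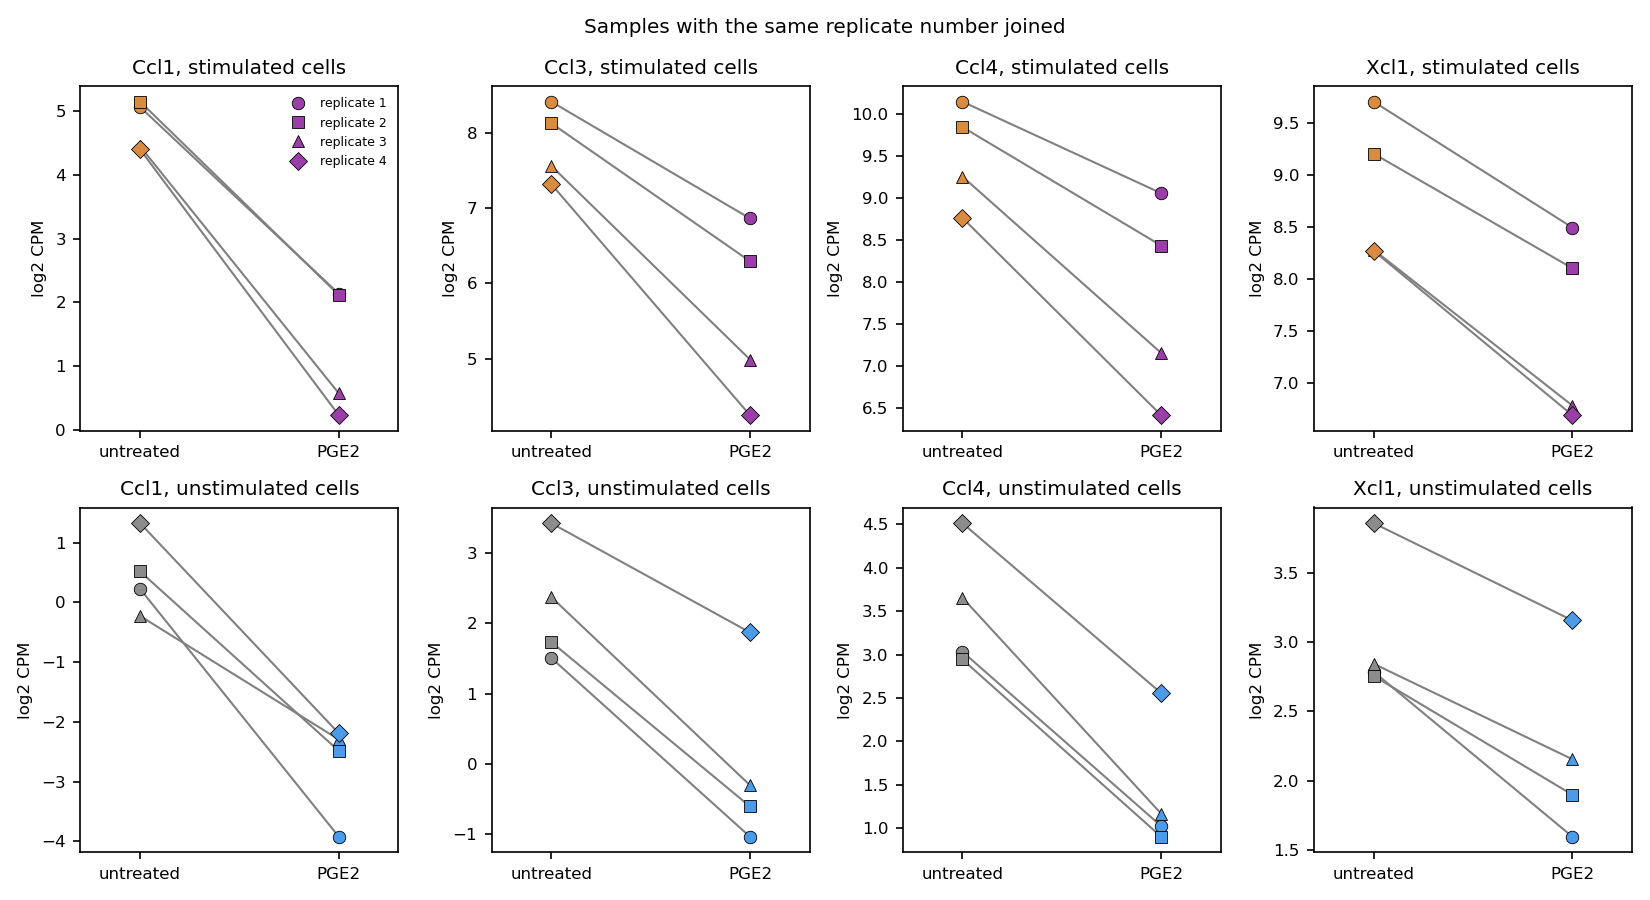
Log2 CPM (vertical axes) of Ccl1, Ccl3, Ccl4 and Xcl1 in untreated and PGE2 samples, stimulated in the upper and unstimulated in the lower row. Each line joins 2 samples of the same replicate number. Every line runs downwards to PGE2.

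The other 3 genes behaved differently. Ccl5 had 24.04, 26.8, 33.0 and 30.4 CPM with PGE2 and beads, slightly below the untreated sample of its number in 4 of 4 pairs, and overlapping as groups. Its log2 fold change was −0.21 ± 0.10 (SE, edgeR adjusted p = 0.222, or 0.0147 with the block, in both cases under the 2-fold limit). Cxcl10 had 24.8, 30.0, 13.0 and 10.4 CPM with PGE2, higher than untreated in 2 pairs and lower in 2, with 0.07 ± 0.40 (SE, edgeR adjusted p = 0.922). Ccl9 had 51, 16, 10 and 5 reads (−0.45 ± 0.59, SE, edgeR adjusted p = 0.645). With an SE of 0.59 log2 units a 2-fold change of Ccl9 in either direction was not detectable.

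Without beads, PGE2 was set against untreated cells in IL-2 alone. Here 3.38% of 14505 genes were called and 1.92% called lower. Of the 6 chemokine genes that passed the filter, Ccl1, Ccl4 and Ccl3 were called lower and none higher, with a median log2 fold change of −1.38 beside 0.00 over all genes. The groups did not overlap for Ccl1 and Ccl4, and 16.8% of all genes were lower in this way.

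Ccl1 reads numbered 25, 41, 28 and 81 in untreated and 0, 4, 5 and 6 in PGE2 samples. Low as these counts are, the groups were well apart (−3.68 ± 0.54, SE, edgeR adjusted p = 0.000423). Ccl4 was at 1.97, 1.80, 2.18 and 5.81 CPM with PGE2, below the lowest untreated sample at 7.63 CPM, with −2.08 ± 0.43 (SE, edgeR adjusted p = 0.00408).

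Ccl3 was at 0.421, 0.591, 0.745 and 3.60 CPM with PGE2 against 2.78 to 10.7 CPM without. Only PGE2 replicate 4 reached into the untreated range. Ccl3 fell by 1.98 ± 0.63 (SE, edgeR adjusted p = 0.0347), and without PGE2 replicate 4 by 3.19 (adjusted p = 0.000929). The call was lost without untreated replicate 3 (adjusted p = 0.0629) or 4 (0.112), or without PGE2 replicate 1 (0.0587), 2 (0.0968) or 3 (0.0954).

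Xcl1 was at 2.95, 3.66, 4.38 and 8.87 CPM with PGE2, where replicate 4 again lay within the untreated range of 6.70 to 14.5 CPM. Its log2 fold change was −0.79 ± 0.35 (SE, edgeR adjusted p = 0.119). It was lower in 4 of 4 pairs and passed on adjusted p with the block (−0.82, 7.96e-06) yet not on fold, and it was called without PGE2 replicate 4 (−1.24, adjusted p = 0.00921). Ccl5 (28.8 to 34.4 CPM with PGE2, −0.18 ± 0.08, adjusted p = 0.133) and Cxcl10 (1.05 to 3.80 CPM, 0.50 ± 0.36, adjusted p = 0.338, SE in both cases) were not called by edgeR. Ccl9 had 6 reads in each group, and in the PGE2 group all were in replicate 1.

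**Figure D3:**
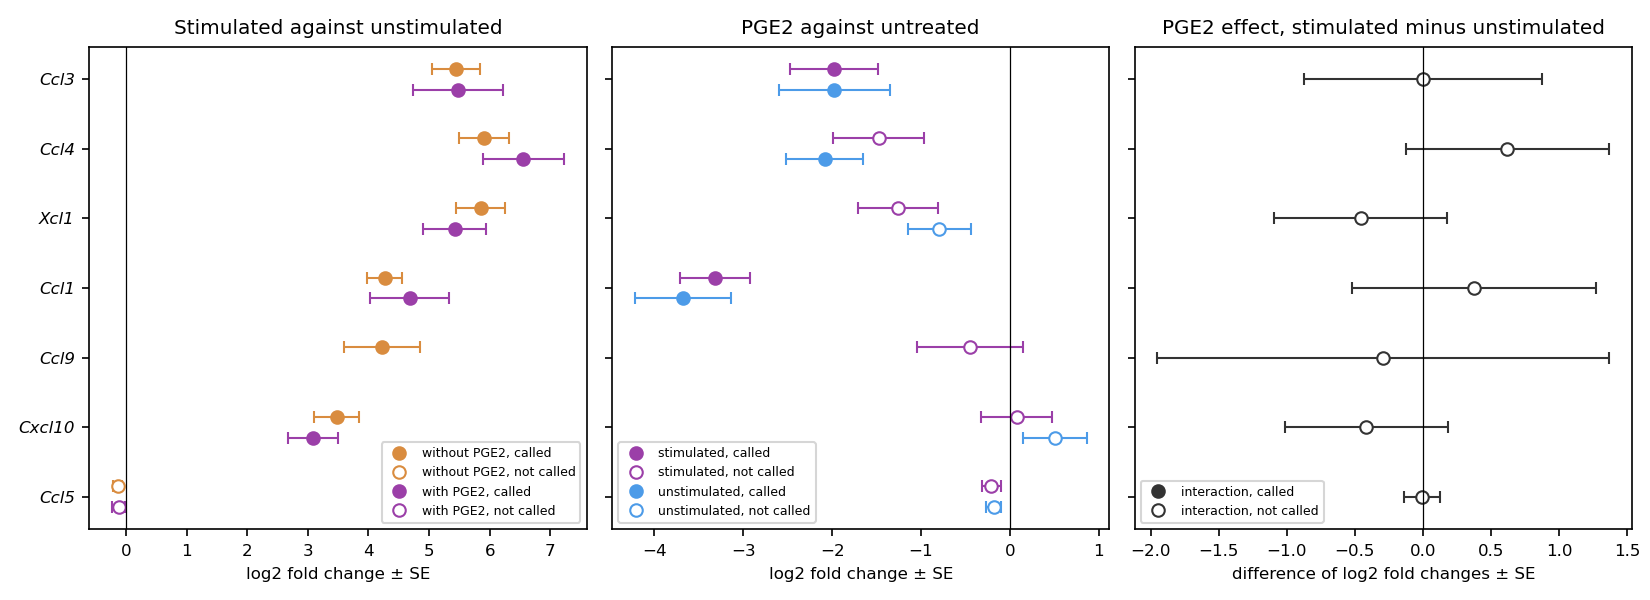
Log2 fold change ± SE (horizontal axes) of the 7 chemokine genes for stimulation (left), PGE2 (middle) and the difference between the PGE2 effects (right), from the edgeR fits without a block. Filled circles are called genes and open circles genes not called, and Ccl9 has no value where it did not pass the filter. Ccl1 lies farthest to the left with PGE2 in both settings, and no gene is called on the right.

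Whether PGE2 acted differently in stimulated and unstimulated cells was tested as an interaction over 15096 genes, of which 0.232% were called. Of the 7 chemokine genes edgeR called 0, and 0 had an unadjusted p below 0.05. DESeq2 likewise called 0. The differences between the log2 fold changes were 0.37 ± 0.90 (SE) for Ccl1, 0.00 ± 0.87 for Ccl3, 0.62 ± 0.75 for Ccl4, −0.46 ± 0.63 for Xcl1, −0.01 ± 0.13 for Ccl5, −0.42 ± 0.60 for Cxcl10 and −0.29 ± 1.66 for Ccl9. For all but Ccl5 these errors leave room for differences of 2-fold or more. On the log2(FPKM + 1) scale limma called Ccl1 in the opposite direction (−1.97, adjusted p = 0.0128). That scale compresses values far below 1, and unstimulated Ccl1 was at 0.571 FPKM untreated and at 0.041 FPKM with PGE2. Its part in the opposite direction was not tested.

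The make-up of the chemokine transcripts changed with stimulation. In unstimulated untreated cells, Ccl5 led with 35.7 ± 2.11 FPKM (SD, n = 4), followed by Ccl4 (18.4 ± 10.1), Xcl1 (15.96 ± 6.87), Ccl3 (6.77 ± 4.48), Cxcl10 (0.690 ± 0.246), Ccl1 (0.571 ± 0.286) and Ccl9 (0.017 ± 0.018). Among these the neighbours Ccl5 and Ccl4, Ccl4 and Xcl1, Xcl1 and Ccl3, and Cxcl10 and Ccl1 overlapped between samples. Ccl5 exceeded Ccl4 within each of the 4 samples nevertheless, while Ccl4 exceeded Xcl1 in 2 of 4.

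In stimulated untreated cells the order was Ccl4 (1122 ± 474 FPKM), Xcl1 (936.5 ± 482), Ccl3 (304 ± 111), Ccl5 (32.8 ± 1.55), Ccl1 (11.2 ± 3.24), Cxcl10 (7.90 ± 3.99) and Ccl9 (0.311 ± 0.152). The samples of Ccl4 and Xcl1 overlapped, as did those of Ccl1 and Cxcl10, but within all 4 samples Ccl4 was above Xcl1 and Ccl1 above Cxcl10. By mean FPKM, Ccl4 ranked 30, Xcl1 43 and Ccl3 172 of 23947 genes with a value above 0. With PGE2 the ranks were 125, 131 and 682 of 24029 genes.

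With PGE2 the order in unstimulated cells was Ccl5 (31.4 ± 2.80 FPKM), Xcl1 (9.12 ± 4.83), Ccl4 (4.28 ± 2.76), Ccl3 (1.67 ± 1.88), Cxcl10 (0.975 ± 0.479), Ccl1 (0.041 ± 0.028) and Ccl9 (0.017 ± 0.033). Ccl5 stood clear of Xcl1 and Cxcl10 clear of Ccl1, and all other neighbours overlapped. In stimulated cells with PGE2 it was Ccl4 (400.4 ± 299), Xcl1 (387 ± 235), Ccl3 (76.6 ± 56.7), Ccl5 (28.2 ± 3.60), Cxcl10 (8.26 ± 4.02), Ccl1 (1.12 ± 0.715) and Ccl9 (0.227 ± 0.219). There the overlapping neighbours were Ccl4 and Xcl1, Ccl3 and Ccl5, and Ccl1 and Ccl9. By mean FPKM Cxcl10 was thus above Ccl1 in 3 of the 4 groups, the exception being stimulated untreated cells.

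The share of Ccl5 in the summed FPKM of the 7 genes was 47.9% ± 10.7 (SD) in unstimulated untreated and 68.0% ± 11 in unstimulated PGE2 cells, against 1.58% ± 0.69 and 4.68% ± 3.27 in stimulated untreated and PGE2 cells. Ccl4 and Xcl1 held 46.7% ± 3.16 and 38.0% ± 3.83 in stimulated untreated cells. With PGE2 they held 41.9% ± 6.11 and 44.2% ± 4.58, and Ccl4 was then above Xcl1 in only 2 of 4 samples. Summed over the 7 genes, the level was 66.2 ± 16.1 CPM (SD) in unstimulated untreated, 43.0 ± 8.92 in unstimulated PGE2, 1608 ± 658 in stimulated untreated and 602 ± 381 in stimulated PGE2 cells.

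**Figure D4:**
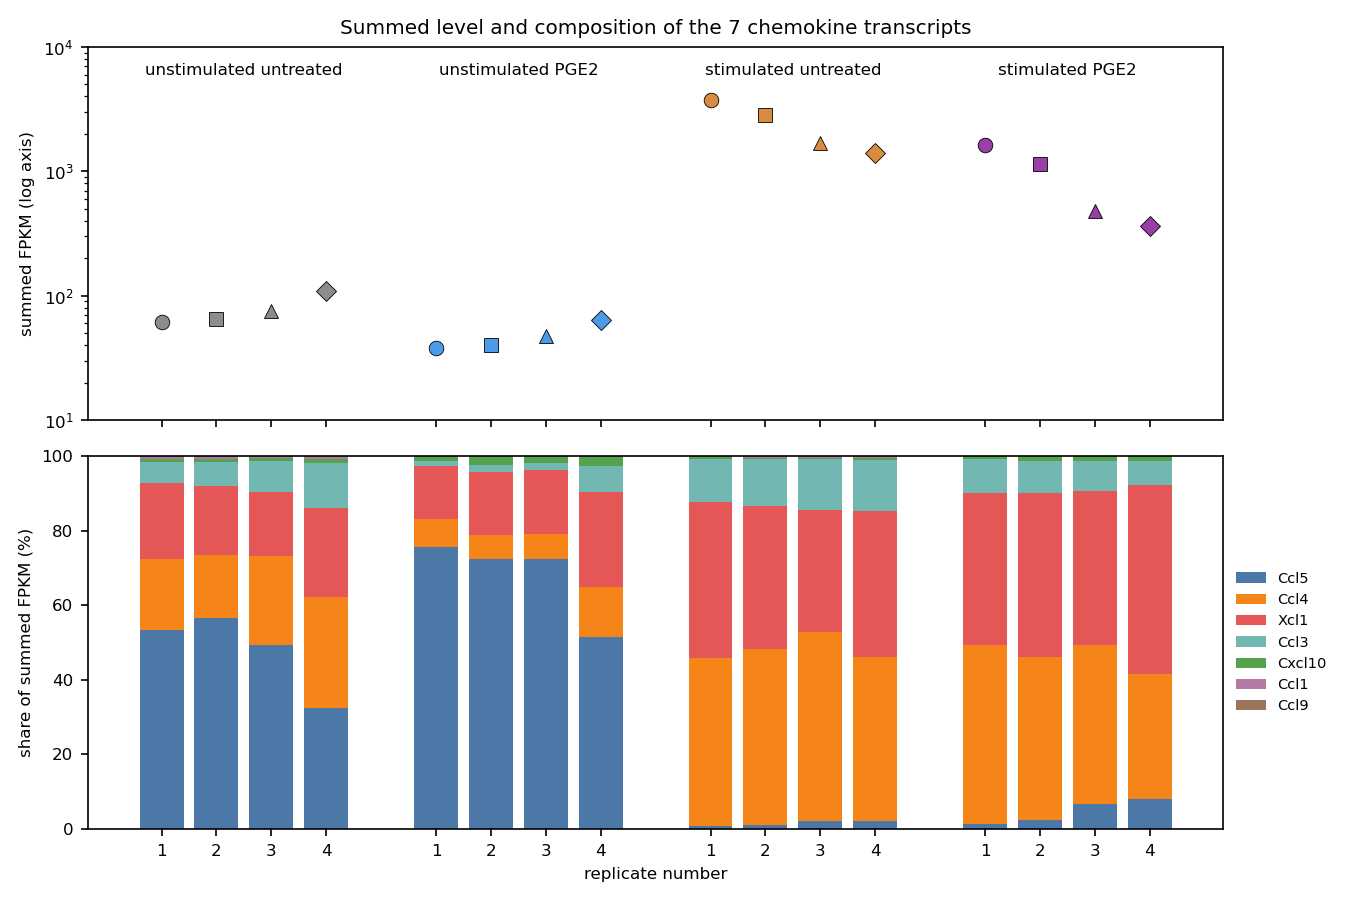
Summed FPKM of the 7 chemokine genes in each sample on a log axis (upper panel) and the share of each gene in that sum in percent (lower panel), by group and replicate number. Ccl5 makes up most of the bar in unstimulated PGE2 samples and a thin strip in stimulated samples, where Ccl4 and Xcl1 fill most of it.

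The ratio of the neighbours Ccl4 and Ccl3 passed the test in none of the 4 comparisons after correction. Per length, Ccl4 exceeded Ccl3 by 3.83, 3.79, 3.74 and 3.15 times in the stimulated untreated replicates and by 5.29, 5.11, 5.23 and 5.25 times in the stimulated PGE2 replicates. All PGE2 ratios were higher, and so was each PGE2 sample than the untreated one of its number. The difference of 0.53 log2 units had an exact permutation p = 0.0286, two-sided, the smallest that 4 against 4 samples allow, and 0.114 after Benjamini-Hochberg adjustment over the 4 comparisons, so it failed the correction. The permutation did not use replicate numbers, and with 4 comparisons a single one at that smallest p is adjusted to 0.114. The other 3 comparisons had differences of 0.23 to 0.65 log2 units with adjusted exact permutation p-values of 0.114 to 0.571. Without beads the ratio ran from 1.88 to 5.42 in PGE2 samples, a range that includes all untreated values of 2.47 to 3.39.

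Most other chemokine ligands were almost absent. Of 31 further ligand symbols, 13 had no read in any sample and 2, Ccl25 and Ccl27a, had a mean of at least 1 CPM. None of those that passed the filter was called with PGE2, and 1, Cxcl16, which attracts CXCR6+ cells, was called higher upon stimulation without PGE2 (1.36 ± 0.31, SE, edgeR adjusted p = 0.00152). Cxcl16 stayed below 1 CPM on average in each group. Group means ran from 5.64 to 6.25 CPM for Ccl25 and from 1.85 to 2.35 CPM for Ccl27a. In unstimulated untreated cells they were at 0.798 and 0.837 FPKM, above the means of Cxcl10, Ccl1 and Ccl9. Ccl25, Ccl27a, Cxcl16 and the called dendritic cell markers were named after their values were seen. Within the cluster, Ccl6, which lies between Ccl9 and Ccl3, had a mean of at most 0.156 CPM in any group.

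Of the 7 receptor genes of these ligands, 4 were tested upon stimulation without PGE2, and 2 were called higher and 1 lower. Over all genes, 11.5% were called higher and 11.7% lower there. Ccr8, the receptor of CCL1, rose upon stimulation from 1.19 to 8.74 CPM without PGE2 (2.85 ± 0.21) and from 0.974 to 12.1 CPM with it (3.64 ± 0.24, log2 fold change ± SE, edgeR adjusted p = 1.88e-07 and 1.43e-06). In stimulated cells Ccr8 was slightly higher with PGE2 (0.48 ± 0.13, SE, edgeR adjusted p = 0.0406), under the 2-fold limit, opposite in sign to its ligand gene Ccl1. Xcr1, the receptor of XCL1, rose with beads from 1.33 to 3.58 CPM (1.42 ± 0.22, SE, edgeR adjusted p = 9.62e-05). Cxcr3, the receptor of CXCL10, fell from 62.5 to 25.3 CPM (−1.31 ± 0.17, SE, edgeR adjusted p = 2.09e-05). None of the 5 receptor genes tested with PGE2 in stimulated cells and of the 4 tested in unstimulated cells was called without the block. Over all genes, 1.75% and 3.38% were called there. With the block, 2.51% of all genes were called in stimulated cells. Among them was Ccr3, a receptor of CCL5 with means of 0.28 CPM untreated and 0.67 CPM with PGE2. It was called higher (1.297, edgeR adjusted p = 0.0107, against 1.31 ± 0.51, SE, and 0.13 without the block).

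The receptors through which cells sense PGE2 were measured in the same samples. Ptger4, which encodes EP4, rose upon stimulation (1.71 ± 0.09, SE, edgeR adjusted p = 2.55e-08) and so did Ptger2, which encodes EP2 (2.21 ± 0.14, 5.88e-08). In stimulated cells both were lower with PGE2, Ptger4 by 0.90 ± 0.15 (edgeR adjusted p = 0.00455) and Ptger2 by 0.90 ± 0.13 (0.00291), under the 2-fold limit. Ptger4 was lower with PGE2 also without beads (−0.57 ± 0.07, SE, edgeR adjusted p = 0.000101), likewise under that limit. Ptger2 was higher there (0.34 ± 0.10, 0.0269).

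Because CXCL10 is induced by interferons, 18 interferon-induced genes were set beside Cxcl10. Of the 16 that passed the filter, 9 were called higher and none lower upon stimulation without PGE2 (median log2 fold change 1.37), led by Isg15 (3.93 ± 0.30), Usp18 (3.06 ± 0.21), Rsad2 (3.03 ± 0.36) and Ifit1 (2.87 ± 0.23, log2 fold change ± SE). Their edgeR adjusted p-values were 1.04e-07 to 8.09e-06. Of all genes 11.5% were called higher in this comparison. On adjusted p alone 11 of the 16 were higher and 2 lower, against 31.7% and 34.8% of all genes. By sign, 12 of the 16 were above and 4 below no change. With PGE2 in stimulated cells 2 of 16 were called higher, both guanylate-binding proteins, Gbp5 (1.13 ± 0.11, edgeR adjusted p = 0.000343) and Gbp2 (1.03 ± 0.12, 0.000807), and none lower, where 1.2% of all genes were called higher. On adjusted p alone 4 of 16 were higher, against 6.04% of all genes. The list went both ways, with 9 genes above and 7 below no change and a median of 0.09 (Cxcl10 was at 0.07). Rsad2 (−0.93 ± 0.40, SE, edgeR adjusted p = 0.169) and Mx1 (−0.92 ± 0.27, 0.0568) did not pass, and with the block they passed on adjusted p (3.92e-05 and 7.35e-06) but not on fold. In unstimulated cells none of 16 was called with PGE2, 4 were higher on adjusted p alone, against 12.9% of all genes, and the median was 0.39 beside 0.50 for Cxcl10.

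The genes whose log2 CPM profiles over the 16 samples were closest to each chemokine gene, by root mean square difference among 12253 genes, are given as a description. They were Il3, Il2 and Csf2 for Ccl3 (0.511 to 0.613 log2 units) and Il3, Il2 and Ifng for Ccl4 (0.352 to 0.653), all cytokine genes. For Xcl1 they were Utf1, Sema7a and Lif (0.486 to 0.520), and for Ccl1 they were Dlk2, Lta and Tnf at a larger distance (1.08 to 1.16). For Cxcl10 they were Tnfsf11, Lilr4b and Ncs1 (0.388 to 0.413), for Ccl9 Eomes, Grasp and Kdm6b (0.660 to 0.671), and for Ccl5 Tecr, Guf1 and Reep4 (0.056 to 0.092). Il2, the T cell growth factor gene, had 101 CPM in stimulated untreated and 26.0 CPM in stimulated PGE2 cells. On the log2(FPKM + 1) scale the shared neighbours were 2 of 3 for Ccl3, Ccl4 and Ccl5, 1 of 3 for Ccl1, Xcl1 and Cxcl10, and 0 of 3 for Ccl9.

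Markers of other cells that could make Ccl9 or Cxcl10 were looked at beside them. Summed over 14 genes, myeloid markers were at 3.04 to 4.86 CPM in unstimulated untreated and at 3.41 to 4.22 CPM in stimulated untreated samples, with Csf1r at 0.030 and 0.016 CPM on average. Summed over 8 genes, dendritic cell markers were at 21.9 to 41.1 and at 42.3 to 70.9 CPM, led by H2-Ab1 and Cd74, with Siglech at 0 in all samples. In the PGE2 groups they summed to 26.8 to 51.4 CPM without and 45.7 to 76.0 CPM with beads. Of the 4 of them tested upon stimulation without PGE2, Zbtb46 (2.04 ± 0.32, SE, edgeR adjusted p = 0.00011) and Itgax (1.05 ± 0.37, 0.0221) were called higher, against 11.5% of all genes. With PGE2 in stimulated cells Itgax, with means of 0.59 CPM untreated and 0.166 CPM with PGE2, was called lower (−1.77 ± 0.40, SE, edgeR adjusted p = 0.0216), against 0.546% of all genes. The other 3 tested went both ways, H2-Ab1 (0.30) and Zbtb46 (0.28) up and Cd74 (−0.12, log2 fold changes) down, and were not called. Of the 8 markers 5 had a mean under 1 CPM, among them Itgax (0.298), Flt3 (0.0815), Clec10a (0.018) and Clec9a (0.00946 CPM). The part of cells other than CD8 T cells in the levels of the 7 chemokine genes was not tested. Over all samples B cell markers summed to 4.6 to 21.1 CPM, CD4 T cell markers to 18.0 to 40.6 CPM, with Cd4 itself at 0.415 CPM, and erythroid markers to at most 0.82 CPM. Tcf7, which encodes TCF1, was at 1180 CPM in unstimulated and 308 CPM in stimulated untreated cells.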

How the data were processed

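RNA-seq of 16 samples was used. The authors aligned paired-end reads of poly(A)-selected libraries to GRCm38/mm10 with HISAT2 2.0.5 and counted them per gene with featureCounts 1.5.0-p3. The deposited counts are raw whole numbers. The deposited FPKM values were derived by the authors from count and gene length. In each sample they equal count divided by length and summed counts times 1 factor (0.878 to 1.11), within 0.1%. The annotation release and the strand setting are not given in the sources used here. Identifiers of 54409 of 54532 genes matched GENCODE M21, which gave coordinates and exons.

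The chemokine genes, the gene and marker lists and the tests were chosen with earlier results of these data known. Groups were taken from the sample labels. Counts were fitted with edgeR 4.0.16 in R 4.3.3 (filterByExpr with minimum count 10, TMM, glmQLFit, glmQLFTest, two-sided), on the 8 samples of each pair of groups and on all 16 for the interaction. P-values were adjusted over all genes tested, and a call needed adjusted p below 0.05 with a 2-fold difference (for the interaction, 1 on the log2 scale). Log2 CPM used a prior count of 2. The Ccl4 to Ccl3 ratio was compared by exact permutation. The scripts were tested on simulated data. The rule for naming other genes took other ligands called with a mean of at least 1 CPM (no ligand met it), receptors with such a mean (1 is not reported here), up to 4 interferon-induced genes per comparison and the 3 most similar profiles per gene. Alternatives were DESeq2 1.42.0, RLE and upper-quartile factors, no filter, limma 3.58.1 on log2(FPKM + 1) or log2(FPKM + 0.1) where the mean FPKM was 1 or more, the former also without that filter, the replicate number as a block, no fold limit, a single fit to all 16 samples, and omitting single samples in turn.

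Replicates of a group differed by more than counting error (chi-square per degree of freedom 8.46 to 56.8), so replicate spread rather than depth mostly limits the precision. Counting error is large as well for unstimulated Ccl9 and for unstimulated Ccl1 with PGE2, where no sample held more than 6 reads. Same-numbered samples were checked for pairing by the correlation of their deviations from the group means over genes. It was 0.194 to 0.423 for PGE2 in stimulated cells, 0.137 to 0.445 for PGE2 in unstimulated cells, 0.112 to 0.363 for stimulation without PGE2 and 0.0484 to 0.285 for stimulation with PGE2. Every pair was above 0.1 in the first 3 comparisons, so their samples were taken to pair by number. By the same numbers the samples of the fourth comparison also pair, though their correlation reached lower values. These correlations are over all genes. Ccl3, Ccl4 and Xcl1 were highest in replicate 4 in both unstimulated groups and in replicate 1 in both stimulated groups. The main edgeR fits nevertheless had no block on replicate number. Their fold changes, SEs and adjusted p-values are therefore unpaired. The block was an alternative fit, and its values are given as those with the block. What the numbers share is not given in the labels.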

Additional observations from a re-analysis of the deposited data

Results flagged for a closer look

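In 32 sets of 4 replicates, covering the 7 genes and the Ccl4 to Ccl3 ratio, a highest or lowest sample far from the other 3 was looked for with Dixon's criterion at the 95% level, which chance exceeds in about 1 of 20 sets. It was exceeded in 5. In unstimulated PGE2 cells replicate 4 was far above the others for Ccl3 (3.595 CPM, next 0.745) and Ccl4 (5.812 CPM, next 2.18). Ccl9 was at 0.2107 CPM in replicate 1 of that group and at 0 in the other 3 samples. In unstimulated untreated cells Xcl1 was at 14.5 CPM in replicate 4, and the next sample was at 7.12 CPM. In stimulated untreated cells the log2 Ccl4 to Ccl3 ratio was lowest at 1.654, in replicate 4, the next value being 1.90.

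The PGE2 effect differed between stimulated and unstimulated cells for Ptger2, by −1.23 ± 0.17 log2 units (SE, edgeR interaction, adjusted p = 0.00336), since Ptger2 was lower with PGE2 upon stimulation and 0.34 ± 0.10 higher without (edgeR adjusted p = 0.0269).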

How the results depend on the processing

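Of the PGE2 differences, the call of Ccl1 in stimulated cells and of Ccl4 in unstimulated cells held under all 18 alternatives, and Ccl1 in unstimulated cells under 15 of 16, the exception being limma on log2(FPKM + 1) without a filter (−0.58, under the fold limit). In that setting Ccl3 also missed the threshold (adjusted p = 0.102 stimulated and 0.0918 unstimulated), and the stimulation differences of Ccl9 without PGE2 (0.36) and Ccl1 with PGE2 (0.96) were under the fold limit. The number of chemokine genes called with PGE2 in stimulated cells was 2. It was 4 without the filter, with the replicate block and in 1 fit of all 16 samples, 1 with limma on log2(FPKM + 1) without a filter, and 1 to 4 on leaving out each sample. In unstimulated cells it went from 3 to 1 with that same limma setting, and DESeq2 put Ccl3 at adjusted p = 0.0512. For the interaction it went from 0 to 1 with limma on log2(FPKM + 1), with or without the filter.

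The replicate block changed no call of a chemokine gene other than those of Ccl4 and Xcl1 with PGE2 in stimulated cells. For stimulation with PGE2, where the correlation of same-numbered samples was weaker (0.0484 to 0.285), the 5 calls were also made with the block. The calls upon stimulation without PGE2 stayed at 6 on leaving out each sample.

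Directions turned only in small or uncertain differences. Cxcl10 with PGE2 in stimulated cells ran from −0.21 to 0.30 on leaving out each sample. In the interaction, Ccl1 was −1.97 with limma on log2(FPKM + 1), with and without the filter, and −1.19 on log2(FPKM + 0.1), and Ccl3 was 0.0276 with DESeq2. On leaving out each sample the interaction ran from −0.055 to 0.60 for Ccl1, −0.57 to 1.21 for Ccl3, −0.10 to 0.069 for Ccl5 and −1.20 to 3.26 for Ccl9. The log2 Ccl4 to Ccl3 ratio with PGE2 in unstimulated cells ran from −0.0045 to 0.51. The cause of these turns in direction was not tested.

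Over all genes, the PGE2 calls in stimulated cells were 243, and 62, 110 and 49 with limma on log2(FPKM + 1), on log2(FPKM + 0.1) and on the former without a filter, and 1370 without the fold limit. In unstimulated cells they were 490, and 116, 237, 113 and 4122 in the same order. For stimulation without PGE2 they were 3301, and 1605 and 1612 with limma on log2(FPKM + 1) with and without the filter and 9440 without the fold limit. For stimulation with PGE2 they were 3210, and 1583, 1604 and 9309. For the interaction they were 35, and 53 with DESeq2, 8, 17 and 6 with the limma settings, 60 with the block, 113 without the fold limit and 18 to 72 on leaving out each sample.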
